A study of Mus musculus with 6 samples.

Results

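Transcripts of 8 chemokine receptors, Ccr2, Ccr4, Ccr7, Ccr8, Ccr9, Ccr10, Cxcr4 and Cxcr6, were followed in regulatory T (Treg) cells with and without MondoA, the glucose-responsive transcription factor encoded by Mlxip. The receptors were found by the NCBI gene identifiers that map to their symbols, and all 8 were among the 17759 genes listed in at least 1 of 6 RNA sequencing libraries. Cells came from C57BL/6 mice aged 8 weeks, either MondoAfl/flFoxp3Cre (KO) or MondoA+/+Foxp3Cre (WT), so that both genotypes carried Foxp3Cre, a Cre recombinase made in cells that express Foxp3. Each genotype was sampled as iTreg cells, as stimulated nTreg cells and as resting nTreg cells, with 1 library per group. The iTreg cells were made from sorted CD4+YFP- naive T cells kept for 4 days in a Treg-polarizing culture, so the floxed alleles could be deleted only once Foxp3 had come on. Resting nTreg cells were CD4+CD25hiYFP+ cells sorted from spleens and lymph nodes. Stimulated nTreg cells were cultured for 48 hours on plate-bound anti-CD3 (5 ug/ml) with anti-CD28 (2 ug/ml) and IL-2 (100 U/ml). The labels do not say how many mice or cultures stand behind a library, so differences between libraries may be technical. With 1 library per group there is no spread between replicates. The p-values below rest only on how far the genotypes differed in their response to state.

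Chemokine receptors are membrane-spanning receptors coupled to inhibitory G proteins. They steer cells along gradients of small secreted proteins, the chemokines, and are then desensitised by G protein-coupled receptor kinases and arrestins. In T cells the set of receptors changes with activation: CCR7 and CXCR4 guide naive and resting cells through lymph nodes and bone marrow, and receptors such as CCR4, CCR8, CXCR6 and CCR2 are known from effector Treg cells in skin, tumours and inflamed tissue. CCR9 is a receptor for homing to the small intestine and CCR10 for homing to skin and mucosal surfaces.

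The 6 libraries held 9760285 to 10185664 expected counts each. All 12 Treg-defining markers, Foxp3 among them, were detected in each library, with Foxp3 at 482 to 744 CPM, that is, normalised counts per 1000000. Ikzf2, which encodes Helios, was at 13.3 and 34.1 CPM in KO and WT iTreg cells, against 359 to 554 CPM in the 4 nTreg libraries. Mlxip had 70.7, 87.1 and 108 CPM in KO iTreg, stimulated and resting cells, against 167, 152 and 142 CPM in the WT libraries. The resting libraries stood apart by sex-linked transcripts. Xist was at 499 and 710 CPM in KO and WT resting cells, where the 4 Y-linked genes examined had 0 counts, and Xist was at 0.302 to 1.12 CPM in the iTreg and stimulated libraries, where Ddx3y was at 45.7 to 115 CPM. Sex therefore cannot be told apart from the resting state in any comparison with resting cells, whereas iTreg and stimulated cells shared a male pattern. Markers of other cells also moved with state. The summed level of 16 myeloid and dendritic cell markers was 136 to 266 CPM in the iTreg and stimulated libraries, where 11 to 15 of the 16 were detected. It was 555 and 656 CPM in KO and WT resting cells, where all 16 were detected. Fscn1, a marker of mature dendritic cells, supplied 152 and 193 CPM of the resting sums, and Ctss supplied 209 and 248 CPM. Ctss also had 223 and 165.5 CPM in KO and WT iTreg cells. Cd68 had 15.8 and 21.7 CPM in KO and WT stimulated cells, above 15.4 and 8.26 CPM in resting cells. The summed level of 14 B cell markers was 218 to 378 CPM in the iTreg and stimulated libraries and 721 and 471 CPM in KO and WT resting cells, with all 14 detected in each library. The summed level of 9 CD8 T and NK cell markers was 249 and 129 CPM in KO and WT iTreg cells, against 36.1 to 69.6 CPM in the nTreg libraries. The summed level of 7 erythroid and platelet markers was 13.04 and 94.3 CPM in KO and WT resting cells, with all 7 detected, and 0.714 to 4.63 CPM in the other libraries. The part of these markers in the results was not tested.

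The leading receptor differed between the states. On the deposited FPKM scale, which corrects for transcript length, Ccr7 and Ccr8 together made up most of the summed level of the 8 receptors in iTreg cells. Ccr7 held 62.2% and 62.5% of it in KO and WT iTreg cells, and Ccr8 held 32.2% and 29.1%. Stimulated cells divided most of it among Ccr8 (33.9% in KO and 28.6% in WT cells), Ccr7 (30.7% and 30.3%) and Ccr4 (21.1% and 26.7%). In resting cells it was held mainly by Ccr7 and Cxcr4, in opposite order by genotype: Cxcr4 held 46.2% in KO and 23.5% in WT cells, and Ccr7 held 37.8% in KO and 63.1% in WT cells. Ccr9 and Ccr10 were at or under 1.66 FPKM in each library.

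**Figure D1:**
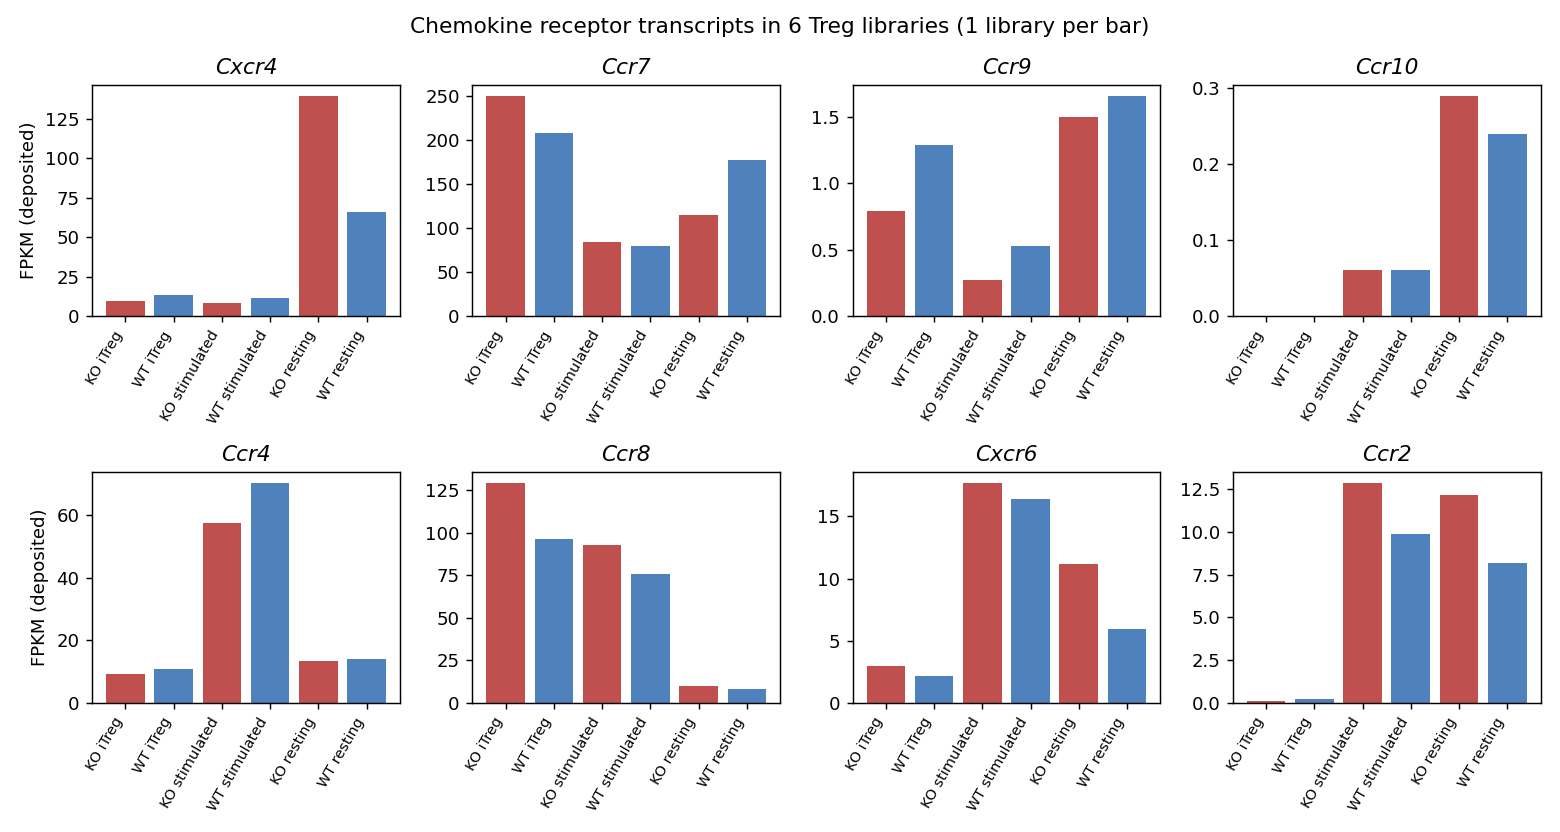
Deposited FPKM of the 8 receptors (vertical axes, linear, each from 0), with 1 bar per library and KO bars (red) left of WT bars (blue) within iTreg, stimulated and resting cells. Cxcr4 was highest in the 2 resting libraries, Ccr8 was lowest there at 9.78 and 7.99 FPKM, and Ccr2 was under 1 FPKM only in the 2 iTreg libraries.

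State comparisons were tested on counts with edgeR's quasi-likelihood test, in a model of state and genotype over all 6 libraries, with Benjamini-Hochberg adjustment over 12848 genes. Since each group was a single library, the spread came from how far the genotypes differed in their response to state. Fold changes below are log2 values from this model with their standard errors (SE), adjusted p-values are from this test, and a call means an adjusted p under 0.05. Ccr10 was left out for low counts. With stimulation, Ccr4, Ccr8 and Cxcr6 rose and Cxcr4, Ccr9 and Ccr7 fell, 3 and 3 of 7 tested receptors. Of all genes, 46.4% were called, 24.1% as higher and 22.3% as lower. In iTreg against resting cells, Ccr8 and Ccr7 rose and Ccr2, Cxcr4 and Cxcr6 fell, 2 and 3 of 7, where 47.7% of all genes were called, 23.9% as higher and 23.8% as lower. In iTreg against stimulated cells, Ccr7 and Ccr9 rose and Ccr2, Ccr4 and Cxcr6 fell, again 2 and 3 of 7, where 14.4% of all genes were called, 6.81% as higher and 7.62% as lower. The median log2 change of the 7 receptors was 0.26 with stimulation, -0.56 in iTreg against resting cells and 0.23 in iTreg against stimulated cells, beside medians of -0.01, -0.01 and -0.05 over all genes tested. In these bulk samples, fewer cells that make a transcript and less of it per cell cannot be told apart.

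Cxcr4 encodes the receptor for CXCL12, which retains cells in bone marrow and is also used for movement in lymphoid tissue. It had 9.38 and 13.5 FPKM in KO and WT iTreg cells, 8.06 and 11.3 FPKM in KO and WT stimulated cells, and 139 and 66.1 FPKM in KO and WT resting cells. Both resting libraries were above all 4 others, and in the resting state the KO library was the higher. Cxcr4 fell by 3.30 (SE 0.363, adjusted p = 0.000122) with stimulation and by 3.07 (SE 0.359, adjusted p = 0.000159) in iTreg against resting cells. The size rested on which resting library was used: without KO resting cells the changes were -2.51 and -2.24, and without WT resting cells -3.99 and -3.76, with every call kept. Between iTreg and stimulated cells Cxcr4 differed by 0.23 (SE 0.349, adjusted p = 0.698), and the sign turned to -0.25 without WT iTreg cells and to -0.11 without KO stimulated cells.

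Ccr7 encodes the receptor for CCL19 and CCL21, which brings naive T cells and mature dendritic cells into the T cell zone of lymph nodes. Its FPKM was 249.8 in KO and 207 in WT iTreg cells, 84.0 in KO and 80.0 in WT stimulated cells, and 114 in KO and 178 in WT resting cells. The iTreg libraries were highest and the stimulated libraries lowest, with the resting libraries between them and farthest apart by genotype. Ccr7 rose by 1.48 (SE 0.256, adjusted p = 0.0051) in iTreg against stimulated cells, a call kept under each alternative tried. Against resting cells it rose by 0.74 in iTreg cells (SE 0.253, adjusted p = 0.0376) and fell by 0.74 with stimulation (SE 0.253, adjusted p = 0.0376), and both calls depended on single libraries. The iTreg call was lost without KO iTreg cells (0.44, adjusted p = 0.169) or KO resting cells (0.34, adjusted p = 0.494), at a mean of at least 50 counts (adjusted p = 0.0508) and with limma on log2(FPKM + 1) and log2(FPKM + 0.1) (adjusted p = 0.0549 and 0.0964). The stimulation call was lost without KO stimulated (-0.87, adjusted p = 0.0639), WT stimulated (-0.59, adjusted p = 0.239) or WT resting cells (-0.26, adjusted p = 0.58) and with limma on log2(FPKM + 0.1) (adjusted p = 0.0636). Fscn1, the dendritic cell marker given above, was at 12.7 and 8.06 CPM in KO and WT iTreg cells. It was at 2.555 and 1.91 CPM in KO and WT stimulated cells and at 152 and 193 CPM in KO and WT resting cells. Its part in the Ccr7 values was not tested.

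Ccr9, the receptor for the intestinal and thymic chemokine CCL25, was scarce. Its counts were 35 and 55 in KO and WT iTreg cells, 12 and 23 in KO and WT stimulated cells, and 65 and 71 in KO and WT resting cells. The stimulated libraries were lowest and the resting libraries highest. The counting intervals of WT iTreg (4.23 to 7.30 CPM) and KO resting cells (4.77 to 7.88 CPM) overlapped. Ccr9 fell by 1.95 (SE 0.368, adjusted p = 0.00238) with stimulation. In iTreg against resting cells it differed by -0.56 (SE 0.333, adjusted p = 0.19). Its rise of 1.38 in iTreg against stimulated cells (SE 0.375, adjusted p = 0.0376) was lost without any of the 4 libraries compared, at adjusted p-values of 0.0598, 0.0926, 0.252 and 0.077 without KO iTreg, WT iTreg, KO stimulated and WT stimulated cells. It was also lost with DESeq2 (adjusted p = 0.111), with limma on log2(FPKM + 1) (adjusted p = 0.082) and without genotype in the model (adjusted p = 0.0797). Ccr10, the receptor for the epithelial chemokines CCL27 and CCL28, had 0 and 0 counts in KO and WT iTreg cells, 1 and 1 in KO and WT stimulated cells, and 5 and 4 in KO and WT resting cells. Counts of 0 allow levels of up to 0.307 and 0.306 CPM in KO and WT iTreg cells (3 counts per library, for counting error only), and the resting levels were 0.476 and 0.398 CPM in KO and WT cells. Ccr10 was not tested.

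Ccr4 encodes the receptor for CCL17 and CCL22, used by Treg cells in skin and at sites of inflammation. It had 9.23 and 10.8 FPKM in KO and WT iTreg cells, 57.7 and 70.5 FPKM in KO and WT stimulated cells, and 13.3 and 14.0 FPKM in KO and WT resting cells. Only the stimulated libraries were high, and the iTreg libraries lay just under the resting ones. Ccr4 rose by 2.31 (SE 0.182, adjusted p = 1.76e-05) with stimulation and fell by 2.68 (SE 0.186, adjusted p = 6.76e-05) in iTreg against stimulated cells. In iTreg against resting cells it differed by -0.37 (SE 0.180, adjusted p = 0.115).

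Ccr8, the receptor for CCL1 and, in the mouse, CCL8, is a marker of activated tissue and tumour Treg cells. Its FPKM was 129 and 96.5 in KO and WT iTreg cells, 92.8 and 75.7 in KO and WT stimulated cells, and 9.78 and 7.99 in KO and WT resting cells. Both cultured states were far above the resting state in each genotype. Ccr8 rose by 3.74 (SE 0.203, adjusted p = 2.2e-06) in iTreg cells and by 3.33 (SE 0.200, adjusted p = 4.2e-06) in stimulated cells, each against resting cells. Between iTreg and stimulated cells it differed by 0.41 (SE 0.175, adjusted p = 0.151). Ccr4 and Ccr8 thus rose together with stimulation, but of this pair only Ccr8 was called as higher in iTreg than in resting cells.

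Promoter sequences are given for the receptors with the largest calls of opposite direction with stimulation, Ccr4 and Ccr8 for the rise and Cxcr4 for the fall. RefSeq promoter entries on GRCm38.p6 were matched for 6 of the 8 receptors. Each sequence is the 250 bases before the gene's start, read 5′ to 3′ on the gene's strand: chr9:114496545-114496794 on the minus strand for Ccr4, chr9:120091883-120092132 on the plus strand for Ccr8 and chr1:128592300-128592549 on the minus strand for Cxcr4. Capitals mark matches, on either strand, to the AP-1 motif TGANTCA, the GC box GGGCGG and the CACCC motif of Krüppel-like factors.
Ccr4: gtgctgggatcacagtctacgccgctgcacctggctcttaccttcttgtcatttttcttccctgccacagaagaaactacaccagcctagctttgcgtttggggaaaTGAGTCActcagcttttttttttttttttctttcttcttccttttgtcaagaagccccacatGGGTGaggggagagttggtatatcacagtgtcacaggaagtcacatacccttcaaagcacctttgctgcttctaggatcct
Ccr8: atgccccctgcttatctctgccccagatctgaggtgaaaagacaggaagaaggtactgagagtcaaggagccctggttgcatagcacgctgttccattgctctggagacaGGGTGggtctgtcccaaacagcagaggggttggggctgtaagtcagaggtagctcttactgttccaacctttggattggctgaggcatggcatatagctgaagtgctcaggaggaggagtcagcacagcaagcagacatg
Cxcr4: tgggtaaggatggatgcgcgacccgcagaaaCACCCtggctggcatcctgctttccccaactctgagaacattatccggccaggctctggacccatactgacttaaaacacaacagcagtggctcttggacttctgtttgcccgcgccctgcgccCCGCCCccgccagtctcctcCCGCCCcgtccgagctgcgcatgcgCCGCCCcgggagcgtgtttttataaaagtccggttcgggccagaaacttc
The Ccr4 window held an AP-1 match whose first base was at -143 and a CACCC match at -81. AP-1 matches were present in 6.75% of 32851 RefSeq promoters searched over the same length, and CACCC matches in 52% of them. The Ccr8 window held a CACCC match at -140 and no AP-1 match. The Cxcr4 window held GC boxes at -95, -75 and -50, a motif present in 32.7% of promoters, and a CACCC match at -219. No match overlapped another. The E-box CACGTG, the core of the element that MondoA binds with its partner Mlx, was in 6.02% of promoters and in 0 of the 6 receptor windows. Each match describes letters in a window and is not a measured binding site.

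Cxcr6, the receptor for the membrane-bound chemokine CXCL16, is found on tissue-resident and effector T cells. It had 2.92 and 2.17 FPKM in KO and WT iTreg cells, 17.7 and 16.4 FPKM in KO and WT stimulated cells, and 11.2 and 5.90 FPKM in KO and WT resting cells. The iTreg libraries were lowest and the stimulated libraries highest. Cxcr6 fell by 2.77 (SE 0.268, adjusted p = 0.00029) in iTreg against stimulated cells and by 1.63 (SE 0.268, adjusted p = 0.00108) in iTreg against resting cells. It rose by 1.14 (SE 0.243, adjusted p = 0.00444) with stimulation, a call lost without WT stimulated cells (0.88, adjusted p = 0.0622) or WT resting cells (0.86, adjusted p = 0.0581). Cxcr6 lies inside Fyco1, a gene of autophagosome transport, and without stated strandedness their reads may not be separable. The expected counts of Fyco1 were 450 and 638 in KO and WT iTreg cells, 456 and 507 in KO and WT stimulated cells, and 509 and 541 in KO and WT resting cells, and its part in the Cxcr6 values was not tested.

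Ccr2, the receptor for CCL2 and CCL7, marks monocytes and also T cells that enter inflamed tissue. Its counts were 5 and 8 in KO and WT iTreg cells, 474 and 358 in KO and WT stimulated cells, and 437 and 288 in KO and WT resting cells. Ccr2 was near 0 in both iTreg libraries, and the stimulated and resting libraries overlapped. Ccr2 fell by 5.94 (SE 0.329, adjusted p = 3.27e-05) in iTreg against stimulated cells and fell by 5.68 (SE 0.330, adjusted p = 3.03e-06) in iTreg against resting cells, changes that were -6.55 and -6.28 without WT iTreg cells. With stimulation it differed by 0.26 (SE 0.218, adjusted p = 0.352). On the normalised scale Ccr2 was at 48.4 and 36.0 CPM in KO and WT stimulated cells, against 41.6 and 28.7 CPM in KO and WT resting cells. The summed level of the 16 myeloid markers was 136 and 169 CPM in KO and WT stimulated cells, against 555 and 656 CPM in KO and WT resting cells. The part of these cells in the Ccr2 values was not tested. In RefSeq's annotation Ccr2, Ccr4, Ccr8, Ccr9 and Cxcr6 are all on chromosome 9, in part as close neighbours, and reads of related receptor genes can be shared between them.

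**Figure D2:**
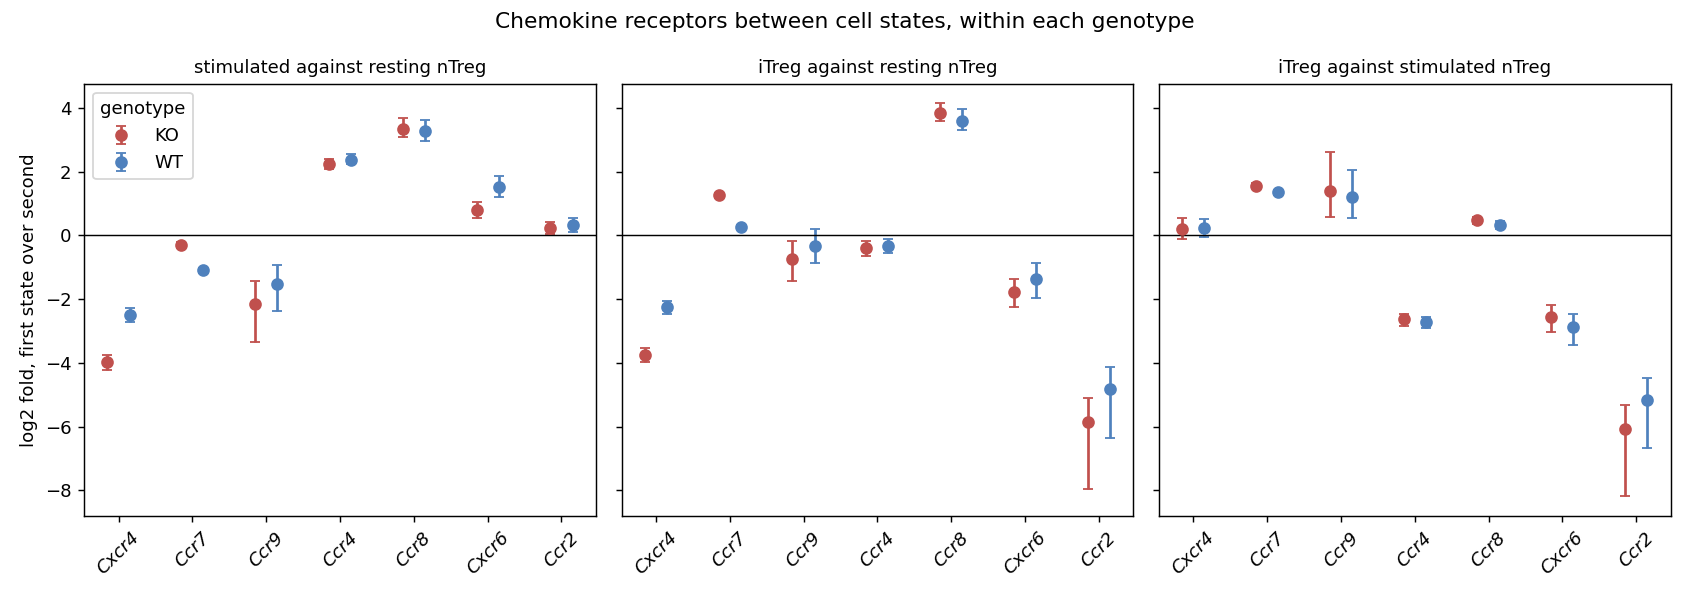
Log2 fold (vertical axis) of 7 receptors between states within each genotype, from 1 library against 1, with KO (red) left of WT (blue) and bars giving exact 95% intervals for counting error only. The KO and WT points of Ccr4, and those of Ccr8, lie close together in each panel, whereas the fold of Cxcr4 with stimulation was -3.96 in KO and -2.48 in WT cells.

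The response to state was also set side by side in KO and WT cells. These responses were not tested against each other, since each value is a difference between 2 libraries. For Ccr8 the log2 fold with stimulation was 3.36 in KO and 3.27 in WT cells, and for Ccr4 2.24 in KO and 2.38 in WT cells. For Cxcr4 it was -3.96 in KO (95% interval -4.23 to -3.74) and -2.48 in WT cells (-2.72 to -2.28). For Ccr7 it was -0.31 in KO (-0.40 to -0.22) and -1.09 in WT cells (-1.18 to -1.01), and for Cxcr6 0.80 in KO (0.55 to 1.06) and 1.51 in WT cells (1.21 to 1.86). The intervals cover counting error only, so they cannot show whether the response differed between the genotypes. The same resting libraries enter the iTreg responses, in which Ccr7 differed by 1.26 in KO and 0.26 in WT cells and Cxcr4 by -3.74 in KO and -2.25 in WT cells.

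Between KO and WT cells, the largest difference of a receptor was that of Cxcr4 in resting cells. Cxcr4 was the 1 receptor of the 8 that passed a 2-fold difference with at least 50 counts in the higher library, in resting cells only. It had 2521 counts in KO and 1174 in WT resting cells, 239.9 and 117 CPM, a log2 fold of 1.04 (95% interval 0.94 to 1.14 for counting error). With a smooth trend of each library against transcript length removed, the fold was 0.98, which is under 2-fold. Of all genes with enough counts in resting cells, 2.87% passed this size in either direction and 1.41% as higher in KO. In the other states Cxcr4 was lower in the KO library, at -0.46 (-0.75 to -0.17) in iTreg and -0.44 (-0.76 to -0.13) in stimulated cells. Ccr7 had the opposite signs: it was lower in KO resting cells by -0.67 (-0.75 to -0.60), with 2241 counts against 3421 in WT, and its fold was 0.33 (0.27 to 0.39) in iTreg and 0.11 (0.01 to 0.21) in stimulated cells. Beside these resting values, the summed B cell markers were at 721 and 471 CPM and the erythroid and platelet markers at 13.04 and 94.3 CPM in KO and WT cells, and their part was not tested. No group had a second library, so no within-state difference was tested.

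Ccr8 and Cxcr6 were higher in KO than in WT cells in all 3 states, as were 18.5% of all genes tested. The log2 fold of Ccr8 was 0.49 (0.37 to 0.60) in iTreg, 0.34 (0.21 to 0.47) in stimulated and 0.25 (-0.16 to 0.67) in resting cells. For Cxcr6 it was 0.47 (-0.12 to 1.11) in iTreg, 0.15 (-0.07 to 0.38) in stimulated and 0.87 (0.54 to 1.23) in resting cells. Ccr4 and Ccr9 were lower in KO cells in all 3 states, as were 14.4% of all genes. For Ccr4 the fold was -0.16 (-0.41 to 0.08) in iTreg, -0.24 (-0.34 to -0.15) in stimulated and -0.10 (-0.31 to 0.11) in resting cells. For Ccr9 it was -0.62 (-1.30 to -0.01) in iTreg, -0.82 (-2.06 to 0.15) in stimulated and -0.19 (-0.70 to 0.31) in resting cells. Ccr2 was higher in KO cells in the 2 nTreg states, at 0.43 (0.23 to 0.63) in stimulated and 0.53 (0.32 to 0.76) in resting cells, and its few counts in iTreg cells gave -0.51 (-2.63 to 1.12). In iTreg cells 7.9% of genes and in stimulated cells 1.06% passed 2-fold, and none of the receptors did. With the same length trend removed, the iTreg values of Ccr8 and Ccr7 were 0.12 and 0.15.

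Over the 3 states together, none of the 7 receptors was called for genotype in the edgeR fit, where 0.171% of all genes were. In edgeR's test 2 receptors had an unadjusted p under 0.05, beside 7.93% of all genes: Cxcr6 (0.49, SE 0.208, adjusted p = 0.617) and Ccr8 (0.37, SE 0.150, adjusted p = 0.617). The other changes were 0.39 for Ccr2, -0.17 for Ccr4, -0.53 for Ccr9, 0.09 for Cxcr4 and -0.08 for Ccr7, with adjusted p-values of 0.628 to 0.922. The median of the 7 was 0.09 beside 0.02 over all genes tested. DESeq2, limma on FPKM and the other alternatives called none of the 7 either, with adjusted p-values of at least 0.342. For comparison within the same fit, Txnip, the best-known MondoA target, fell by 2.15 (adjusted p = 0.00171), a call lost with limma on log2(FPKM + 0.1) (adjusted p = 0.0807) and without state in the model. Mlxip, the deleted gene itself, was not called for genotype in this edgeR fit (adjusted p = 0.239). DESeq2 called Mlxip as lower in KO cells (-0.83, adjusted p = 0.0181). The lack of a call in this fit therefore does not show that a gene was unchanged. The summed level of B cell markers was higher in the KO library of each state. It was 378 and 244 CPM in KO and WT iTreg cells and 274 and 218 CPM in KO and WT stimulated cells. In KO and WT resting cells it was 721 and 471 CPM. Cd74 supplied 247 and 198 CPM of the iTreg sums, and Fcer2a and Cr2 were lower in KO than in WT stimulated cells. None of the 14 markers was called for genotype in the edgeR fit, and their part in receptor values was not tested.

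Among 10 other chemokine receptors examined, 8 could be tested. With stimulation 1 rose and 3 fell, in iTreg against resting cells 1 rose and 5 fell, and in iTreg against stimulated cells 1 rose and 4 fell. Under at least 1 alternative, 2, 1 and 2 of these calls were lost and 2, 1 and 1 others were gained, in the same order. Of all genes tested, 24.1% rose and 22.3% fell with stimulation, 23.9% and 23.8% in iTreg against resting cells, and 6.81% and 7.62% in iTreg against stimulated cells. Ccr3, the eotaxin receptor and a neighbour of Ccr2, had 0 counts in both iTreg libraries and 77 and 19 counts in KO and WT resting cells. Cx3cr1, the fractalkine receptor and a neighbour of Ccr8, rose with it in iTreg against resting cells (3.85, SE 0.348, adjusted p = 3.4e-05) and had 37.9 and 18.8 CPM in KO and WT iTreg cells. Cxcr3, the Th1 receptor for CXCL9 and CXCL10, passed 2-fold between KO and WT in iTreg (51.3 against 18.3 CPM) and resting cells (186 against 65.0 CPM), and over the 3 states it differed by 1.08 (adjusted p = 0.263). This genotype difference of Cxcr3 was called with DESeq2 (adjusted p = 0.0124) and by edgeR without KO or WT stimulated cells (1.51 in each). These alternatives also called more genes for genotype than edgeR's fit of all 6 libraries. Cxcr5, the follicular receptor shared with B cells, had 7.99 CPM in KO and 2.45 CPM in WT iTreg cells. At 50 counts or more in the higher library, Cxcr3, Cxcr5 and Cx3cr1 were at least 2-fold higher in KO iTreg cells, 3 of 4. In resting cells 2 of 5 were, Cxcr3 and Ccr3, and in stimulated cells 0 of 5. Of all genes with enough counts, 7.9% in iTreg, 2.87% in resting and 1.06% in stimulated cells passed 2-fold in either direction. In resting cells 1.41% passed as higher in KO. In edgeR's fit of all 6 libraries none of the 8 was called for genotype, where 0.171% of all genes were, and Cxcr3 was the 1 of them called in an alternative. Of 6 atypical chemokine receptors, only Ccrl2 could be tested, and it fell by 2.28 with stimulation (adjusted p = 0.000273) and fell by 2.94 in iTreg against resting cells (adjusted p = 7.56e-05).

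**Figure D3:**
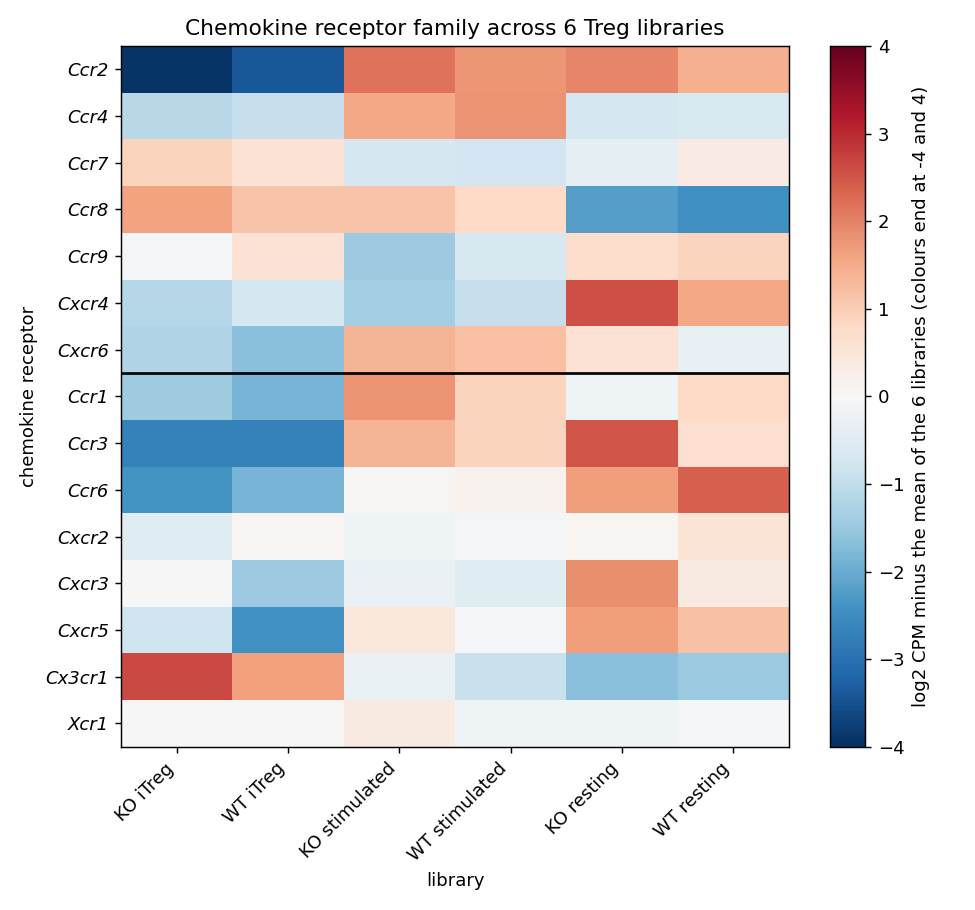
Log2 CPM of 15 chemokine receptors minus each receptor's mean over the 6 libraries (colour), with the 7 tested listed receptors above the line and 8 others below it; columns are libraries, KO left of WT in each state. Ccr2 and Ccr3 are low together in the 2 iTreg columns, and Ccr8 and Cx3cr1 are low in the 2 resting columns.

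Of 14 ligands of the 8 receptors, 7 could be tested, and the other 7 had few counts or were not listed. Ccl22, a ligand of CCR4, had 0.512 and 2.24 CPM in KO and WT iTreg cells, 1.23 and 6.84 CPM in KO and WT stimulated cells, and 53.1 and 131 CPM in KO and WT resting cells. It was lower in KO cells in each state, and it fell by 1.70 over the 3 states (SE 0.258, adjusted p = 0.0482). That call was lost with median-of-ratios scaling (adjusted p = 0.0652), with the length trend removed (0.0747), at a mean of at least 50 counts (0.1), with limma on log2(FPKM + 1) and log2(FPKM + 0.1) (0.172 and 0.222) and without state in the model (1). It fell by 4.70 with stimulation (adjusted p = 5.83e-06), the state in which Ccr4 rose. Mature dendritic cells also make Ccl22, and Fscn1 was at 152 and 193 CPM in KO and WT resting cells and 12.7 CPM or less in the other libraries. Ccl1, a ligand of CCR8, had 30.5 and 9.38 CPM in KO and WT iTreg cells, 4.19 and 2.01 CPM in KO and WT stimulated cells, and 2 and 5 counts in KO and WT resting cells. It rose by 5.67 (SE 0.562, adjusted p = 5.75e-05) in iTreg against resting cells, as Ccr8 did. Ccl1 was also called as higher in iTreg than in stimulated cells (adjusted p = 0.00356), where Ccr8 was not called. That call was lost with limma on log2(FPKM + 0.1) (adjusted p = 0.0678) and without KO iTreg cells (1.95). For genotype Ccl1 was not called over the 3 states (adjusted p = 0.544). Fits without KO or WT resting cells called it as higher in KO (1.44 and 1.45). Cxcl16, the ligand of CXCR6, had 14.1 and 15.9 CPM in KO and WT resting cells and at most 0.922 CPM elsewhere. Ccl25 and Ccl27a, ligands of CCR9 and CCR10, stayed under 3 CPM in each library, and Cxcl12, Ccl21a and Ccl12 were not listed in any library.

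The next lists hold genes that transmit or end receptor signals, genes of lymphoid homing and genes of effector Treg cells. Their counts stand beside shares of all genes of 24.1% higher and 22.3% lower with stimulation, 23.9% and 23.8% in iTreg against resting cells, and 6.81% and 7.62% in iTreg against stimulated cells. Of 24 tested genes of receptor coupling and desensitisation, 2 rose and 11 fell with stimulation, 3 rose and 10 fell in iTreg against resting cells, and 6 rose and 1 fell in iTreg against stimulated cells. Their median log2 changes were -0.46, -0.32 and 0.13, beside the medians near 0 of all genes given above. Under at least 1 alternative, 7, 8 and 6 of these calls were lost and 1, 5 and 4 others were gained, in the same order. The largest falls with stimulation were those of Grk3, a kinase that desensitises receptors (-5.01, SE 0.479, adjusted p = 5.57e-05), and Rgs2, which shortens G protein signals (-4.37, SE 0.243, adjusted p = 2.79e-06). Of 12 genes of lymphoid homing and egress, 0 rose and 10 fell with stimulation, 0 rose and 8 fell in iTreg against resting cells, and 5 rose and 1 fell in iTreg against stimulated cells, with medians of -2.15, -1.18 and 0.62. Here 1, 2 and 5 calls were lost under at least 1 alternative, and 2, 4 and 4 were gained. Klf2, which drives egress receptors, fell by 2.81 (adjusted p = 8.33e-05) with stimulation and rose by 2.16 (adjusted p = 0.00129) in iTreg against stimulated cells, a comparison in which Ccr7 rose. Ccr7 was also called as higher in iTreg against resting cells, where Klf2 was not called (adjusted p = 0.0743). DESeq2 called Klf2 as lower there (-0.65, adjusted p = 0.0412). S1pr1, the receptor for leaving lymph nodes, fell by 2.56 (adjusted p = 3.63e-05) with stimulation and fell by 2.63 (adjusted p = 2.74e-05) in iTreg against resting cells. Of 22 genes of tissue homing and effector Treg cells, 8 rose and 7 fell with stimulation, 4 rose and 16 fell in iTreg against resting cells, and 1 rose and 12 fell in iTreg against stimulated cells, with medians of 0.05, -1.44 and -1.37. For this list 6, 5 and 2 calls were lost under at least 1 alternative, and 1, 1 and 3 were gained. Klrg1, a marker of effector Treg cells, had 0 counts in both iTreg libraries, and Il10 fell by 6.71 (adjusted p = 3.27e-05) in iTreg against stimulated cells, in which Ccr2, Ccr4 and Cxcr6 fell. In edgeR's fit of all 6 libraries none of the genes of these 3 lists was called for genotype. In alternatives, Foxo3, Bach2 and Satb1 were called as lower in KO cells when a stimulated library was left out. Their changes were -0.870, -0.882 and -0.894 without KO and -0.871, -0.883 and -0.895 without WT stimulated cells. Fits without a stimulated library called far more genes for genotype than the fit of all 6 libraries.

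The genes whose pattern over the 6 libraries was most like each receptor's were ranked by the root-mean-square difference of centred log2 CPM among 9875 genes. For Ccr8 it was Irf8, at 0.106, with 622 and 410 CPM in KO and WT iTreg cells, 479 and 327 CPM in KO and WT stimulated cells, and 44.7 and 41.3 CPM in KO and WT resting cells. Ccne1 and Slc43a3 came next for Ccr8. Grap2, a T cell adaptor protein, was closest to Ccr7 at 0.107, followed by Nrp2 and Irf1. Myo1e was closest to Cxcr6 (0.143), Mturn to Ccr9 (0.185), Syp to Ccr4 (0.203), Camk2a to Cxcr4 (0.247) and Penk to Ccr2 (0.324). Gadd45a and Matk followed Camk2a for Cxcr4, and Matk had 133 and 74.1 CPM in KO and WT resting cells, against 239.9 and 117 CPM of Cxcr4. With 6 libraries in 3 states many genes share such a pattern, and the likeness is given as a description.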

How the data were processed

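Bulk RNA sequencing of Treg cells was deposited as 1 table per library. The deposited expected counts are estimated read numbers per gene, per the file headers, not normalised, and 76% were whole within 0.005. The deposited FPKM values are, per the file headers, scaled to transcript length and library size. They were used for levels between receptors and, as log2(FPKM + 1) or log2(FPKM + 0.1), in alternatives. Bowtie2, HISAT and mm9 are named without roles in the submitters' processing notes. The quantifier, annotation and strandedness are not given in the sources used here.

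Identifiers were matched to symbols for 17711 of 17759 genes. Counts were rounded and fitted with edgeR 4.0.16 (R 4.3.3; TMM factors, filterByExpr, quasi-likelihood test, state plus genotype, 2 residual degrees of freedom, common dispersion 0.0297), and 4911 genes were not tested. CPM were TMM-normalised, with a prior count of 2 for log2 folds of single libraries, given with exact conditional 95% intervals for counting error. Alternatives used DESeq2 1.42.0, limma 3.58.1, other scalings and filters, and libraries left out. All 8 receptors were reported; from each other gene list calls were counted, and the text may name the 6 genes changing most in a comparison, with genes overlapping or beside a receptor and the 3 most alike in pattern. Members and lists were chosen with earlier results of these data known.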

Additional observations from a re-analysis of the deposited data

Results flagged for a closer look

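Ccr7 and Cxcr4 were flagged because the genotype difference had opposite signs between cell states. This was common: of all genes tested, only 18.5% were higher and 14.4% lower in KO cells in all 3 states. For Ccr7 the log2 fold of KO over WT was 0.33 in iTreg, 0.11 in stimulated and -0.67 in resting cells. For Cxcr4 it was -0.46 in iTreg, -0.44 in stimulated and 1.04 in resting cells. These differences between states were not tested, since each value comes from 1 library per genotype. The KO and WT resting libraries shared a female pattern of sex-linked transcripts, and the summed level of myeloid and dendritic cell markers was 555 CPM in KO and 656 CPM in WT resting cells. That of B cell markers was 721 CPM in KO and 471 CPM in WT resting cells, and that of erythroid and platelet markers 13.04 CPM in KO and 94.3 CPM in WT resting cells. The part of these markers in the Ccr7 and Cxcr4 values was not tested.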

How the results depend on the processing

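No paired analysis was possible because each group had 1 library and the labels give no replicate numbers. The tested changes of single receptors had 402 alternative values, from edgeR, DESeq2 and limma fits. Of these, 376 kept direction and side of the threshold, 18 lost a call and 8 reversed. The lost calls were those of Ccr7 and Cxcr6 against resting cells and of Ccr9 in iTreg against stimulated cells. The reversed values were all of changes without a call. The genotype change of Ccr7 over the 3 states, -0.08, turned to 0.21, 0.22 and 0.20 without KO resting, WT resting and both resting libraries, the last chosen after seeing the data. That of Cxcr4, 0.09, turned to -0.47, -0.45 and -0.47 under the same settings. Over single libraries left out, they ranged over -0.29 to 0.22 for Ccr7 and -0.47 to 0.42 for Cxcr4. Cxcr4 in iTreg against stimulated cells turned to -0.11 without KO stimulated and -0.25 without WT iTreg cells, in a range of -0.25 to 0.67. Of 105 alternative values between KO and WT in single states, 103 stayed within the counting interval, and Ccr7 and Ccr8 in iTreg cells moved to 0.15 and 0.12 with the length trend removed. With limma on log2(FPKM + 1), which understates the changes of scarce transcripts, Ccr2 changed by -3.22 in iTreg against resting and -3.39 in iTreg against stimulated cells, and Ccr9 by -0.89 with stimulation.

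The number of genes called for genotype over the 3 states, 22, was 67 with DESeq2 and without a filter on low counts, 11 at a mean of at least 50 counts, 10 and 6 with limma on log2(FPKM + 1) and log2(FPKM + 0.1), 0 without state as covariate (61 at an unadjusted p under 0.05), 226 without both resting libraries and 34 to 305 without single libraries. Without single libraries, 5967 calls with stimulation became 3794 to 7575, 6130 in iTreg against resting cells 4056 to 6541, and 1854 in iTreg against stimulated cells 1299 to 3154. At a minimum of 20 in place of 50 counts, the genes past 2-fold between KO and WT numbered 223 in place of 107 in stimulated and 474 in place of 296 in resting cells. The cause was not tested. With 1 library per group, the model counts a genotype effect limited to 1 state as error. Ccr10 was not tested for its low counts.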
